A study of Homo sapiens with 8 samples.

Results

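The genes described here encode the proteins of the cytosolic ribosome, the particle that makes every nuclear-encoded protein of the cell. They were chosen by name alone. All rows of the deposited gene table with a ribosomal protein symbol of the large (RPL) or small (RPS) subunit, or with the symbol RPLP0, RPLP1, RPLP2 or RPSA, were taken, and 0 of them were described as pseudogenes. The rule found 82 of the 15811 genes in the table: 31 of the small or 40S subunit, 46 of the large or 60S subunit, and 5 paralogs that are encoded apart from the copy they resemble (RPL7L1, RPL22L1, RPL26L1, RPL39L and RPS27L). All 82 were tested, and none was near the filter on low values, since the lowest mean over libraries was 1234 normalised read counts.

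Expression was read by sequencing of total RNA in 8 libraries of H9, a long-established line of human embryonic stem cells. There were 4 wild-type (WT) libraries and 4 of EXT1-/- cells, whose EXT1 gene had been cut with CRISPR/Cas9. EXT1 encodes an enzyme that builds the sugar chain of heparan sulfate. All cells had been induced towards mesendoderm, the precursor of mesoderm and endoderm, for 28 h with CHIR-99021 at 6 µM, which inhibits the kinase GSK3. No uninduced library was analysed here. The EXT1-/- libraries come from 1 edited line. Whether replicates were grown apart is not in the labels, so p-values measure only the spread among the 8 libraries, and this may be technical.

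Library totals were 37737058 to 40017763 normalised read counts. Mitochondrially encoded transcripts took 10.7% of WT replicate 1, 9.18% of EXT1-/- replicate 1 and 9.38% of EXT1-/- replicate 4, but 5.30 to 5.43% of the other 5 libraries. The 3 libraries are called the high set and the 5 the low set; these sets were read from the data and the labels do not name them. The high set holds 1 WT library. EXT1 itself read 1464 to 1776 in the WT libraries and 890 to 980 in the EXT1-/- libraries, a log2 fold change of -0.76 ± 0.07 (SE, adjusted p = 9.20e-05, limma), so the transcript was lower but present. The summed level of 4 primitive streak markers was 27021 to 30702 in WT and 9472 to 15005 in EXT1-/- libraries, and that of 5 pluripotency markers 148088 to 154436 and 119403 to 134241, with 3 of the 5 lower and SOX2 higher. The summed level of 3 neuronal markers was 3371 to 4065 in WT and 6746 to 8841 in EXT1-/- libraries, with TUBB3 higher and SYT1 lower; the part of these differences in the results on ribosomal protein genes was not tested.

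Ribosomal proteins are made in nearly equal numbers, since each mature ribosome holds 1 copy of most of them. Their messengers are among the most abundant of growing cells, and most start with a C followed by an unbroken run of C and T, the 5′ terminal oligopyrimidine (TOP) tract, through which mTORC1 and LARP1 control their translation and stability. Embryonic stem cells keep ribosome production high. Mutations in several ribosomal protein genes cause Diamond-Blackfan anaemia, an inherited failure of red cell formation.

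The first bases of the transcripts show this feature. RefSeq start sites (GRCh38.p14) were matched to 66 of the 82 genes. A C at the annotated start followed by at least 4 bases that were each C or T was found in 47 of the 66 (71.2%), against 744 of 10799 other genes of the table (6.89%) and 5.14% of all 27305 genes with such a sequence. The search read the transcribed strand at the start position only, and an annotated start can lie some bases from the one used in these cells. The windows below hold 5 bases before the start and 25 from it, with the TOP tract in capitals; they were picked after the values were seen. The first 3 genes were lower in the high set, and the next 4 higher. RPS26 is in the latter group and has no tract at its annotated start.
RPS21: tgcttCCTTTCTCTCTCgcgcgcggtgtgg
RPL39: agcttCCCTCCTCTTCCTTTCTCCgccatc
RPL31: gcgctCTTCCTTTCCaacttggacgctgca
RPL28: ccttcCTCTTTCCgtctcaggtcgccgctg
RPL12: tccggCCTCTCggctttcggctcggaggag
RPL35: acttcCTCTTTCCCTCggagcgggcggcgg
RPS26: acctcgattttcttccgccatccggctaaa

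These windows lie at chr20:62387098-62387127 (plus strand), chrX:119791606-119791635 (minus), chr2:101002284-101002313 (plus), chr19:55385927-55385956 (plus), chr9:127451382-127451411 (minus), chr9:124861933-124861962 (minus) and chr12:56041913-56041942 (plus). A tract was present in genes that moved either way with the library set: in 15 of 18 genes with a sequence that were at least 1.5-fold lower in the high-set WT library, and in 13 of 19 that were higher in the high set in both genotypes. Among the paralogs 1 of 4 had a tract. The canonical and the paralogous gene of 2 pairs are set side by side here.
RPL22: acctcCCTTTCTaactccgctgccgccatg
RPL22L1: gcttcCTCTCTgctctcgcggccgactcgc
RPS27: tcgctCCTTTCCggcggtgacgacctacgc
RPS27L: cgagcgcagatcgcttgcagcttgctagct

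RPL22 starts at chr1:6199571-6199600 (minus), RPL22L1 at chr3:170870171-170870200 (minus), RPS27 at chr1:153990757-153990786 (plus) and RPS27L at chr15:63157453-63157482 (minus). RPS27L is the gene of these 4 with no tract at its annotated start.

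The 82 genes together took 9.08, 10.3, 10.8 and 10.8% of the normalised counts of WT replicates 1 to 4. In EXT1-/- replicates 1 to 4 they took 9.70, 9.68, 10.2 and 9.21%. The group means were 10.2 ± 0.812% and 9.69 ± 0.392% (SD, n = 4 in each), and the groups overlapped. WT replicate 1, of the high set, had the lowest share of all 8 libraries. Over counts that are not mitochondrial the shares of WT replicate 1 and EXT1-/- replicates 2 and 4 were each 10.2%, the lowest of 10.2 to 11.4%. EXT1-/- replicate 2 is of the low set. Within the low set the mean was 10.6% over 3 WT libraries and 9.93% over 2 EXT1-/- libraries, and each WT library lay above each EXT1-/- library. Within the high set the order was the reverse, with each EXT1-/- library, at 9.70 and 9.21%, above the WT library, at 9.08%. Over counts that are not mitochondrial only EXT1-/- replicate 1, at 10.7%, lay above that WT library. The small subunit took 3.45 to 4.27% of a library and the large subunit 5.60 to 6.54%, while the paralogs took 0.0283 to 0.0408%. In bulk RNA a lower share cannot be divided into fewer cells of a type and less of the RNA per cell.

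**Figure D1:**
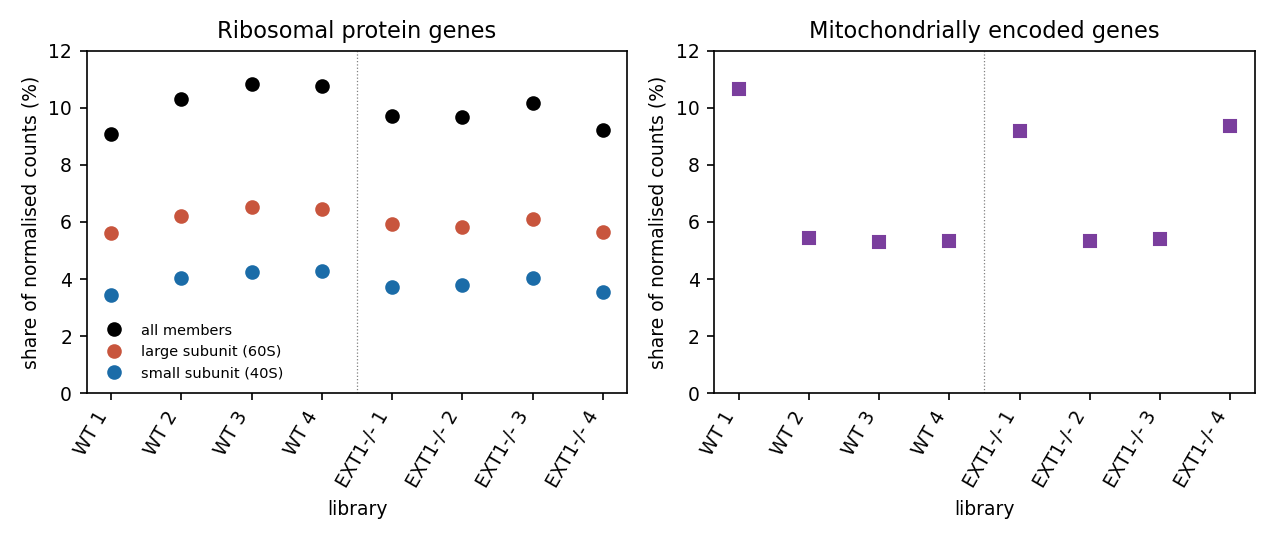
Share of the normalised counts in each library, as percent, for the 82 ribosomal protein genes and their subunits (left) and for mitochondrially encoded genes (right), with 1 point per library. WT 1, EXT1-/- 1 and EXT1-/- 4 sit between 9.18 and 10.7% on the right, above the other 5 libraries, and WT 1 has the lowest share on the left, 9.08%.

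Per kilobase of transcript, the 77 genes other than the paralogs spanned 8761 (RPS26) to 150909 (RPLP0) normalised counts in the WT mean, with a median of 67582. The 5 paralogs lay between 1714 (RPL7L1) and 4242 (RPL22L1), below every one of the 77. Lengths were medians over annotated protein-coding transcripts, which for some of these short genes include long isoforms, so single values per kilobase are approximate.

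Between the genotypes, the ribosomal protein genes differed little over all 8 libraries. With genotype as the only term, 0 of 82 were higher and 1 of 82 was lower in EXT1-/- libraries (limma, Benjamini-Hochberg over 15811 genes, adjusted p below 0.05), where 15.2% of all genes were higher, 16.8% lower and 32.0% passed in either direction. At an unadjusted p below 0.05 there were 4, where 42.9% of all genes passed. Of the 5981 other genes with a mean at or above that of the lowest ribosomal protein gene, 27.4% passed the adjusted threshold. The authors' deposited table gives the same kind of picture: 0 of 82 at an FDR below 0.05, where 26.2% of its genes are, and 0.0707 as the smallest FDR of the 82, for RPS27L.

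The gene that passed was RPL30, which encodes a small RNA-binding protein of the 60S subunit. WT replicates 1 to 4 held 36131, 40141, 40049 and 44611 normalised counts of it, and EXT1-/- replicates 1 to 4 held 35157, 33892, 36401 and 33269. The means of 40233 ± 3466 and 34680 ± 1391 (SD, n = 4) gave a log2 fold change of -0.21 ± 0.07 (SE, adjusted p = 0.0467, limma). The lowest WT library and the highest EXT1-/- library overlapped. The call sat close to the threshold and was lost without each library in turn other than WT replicate 1, with a filter of 5 CPM (adjusted p = 0.0526) and after trends with GC content and length were removed.

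The values of 3 other genes did not overlap between the groups, all lower in EXT1-/-, where 17.2% of all genes were lower without overlap. RPL7A, a 60S protein whose gene hosts small nucleolar RNAs, read 81849, 81085, 80841 and 81605 in WT and 76539, 73480, 74180 and 74066 in EXT1-/- libraries. Its log2 fold change was -0.13 ± 0.04 (SE, adjusted p = 0.0551, limma), a shift of small size against a very narrow spread. RPL24, which forms a bridge to the 40S subunit, read 36646, 38540, 40075 and 40951 against 36372, 33462, 35579 and 34830, a log2 fold change of -0.15 ± 0.05 (SE, adjusted p = 0.0575, limma). RPL27, another 60S protein, read 34510, 32927, 34019 and 34509 against 32897, 28578, 30710 and 32256, a log2 fold change of -0.13 ± 0.06 (SE, adjusted p = 0.114, limma). None of the 3 passed the adjusted threshold.

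The log2 fold changes of the 82 ran from -0.43 (RPS27L) to 0.32 (RPS15) with a median of -0.10, where the median of all genes was 0.01. After trends with GC content and length were removed the medians were -0.04 and 0.04, and with the library set as a term -0.06 and 0.02. Of the 82, 63 were below 0 and 19 above with genotype as the only term, where 7667 of all 15811 genes were below 0. The medians of the 2 subunits were nearly equal, -0.11 for the 31 small-subunit genes and -0.10 for the 46 large-subunit genes, and the 5 paralogs had a median of -0.16. With genotype as the only term, the 95% interval of the fold change lay within 2-fold for 80 of 82 genes, all but RPL34 and RPL39. It lay within 1.5-fold for 64. These intervals measure only the spread among the 8 libraries. They take no account of the library set, which is not balanced between the genotypes, so they do not bound a difference due to genotype.

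**Figure D2:**
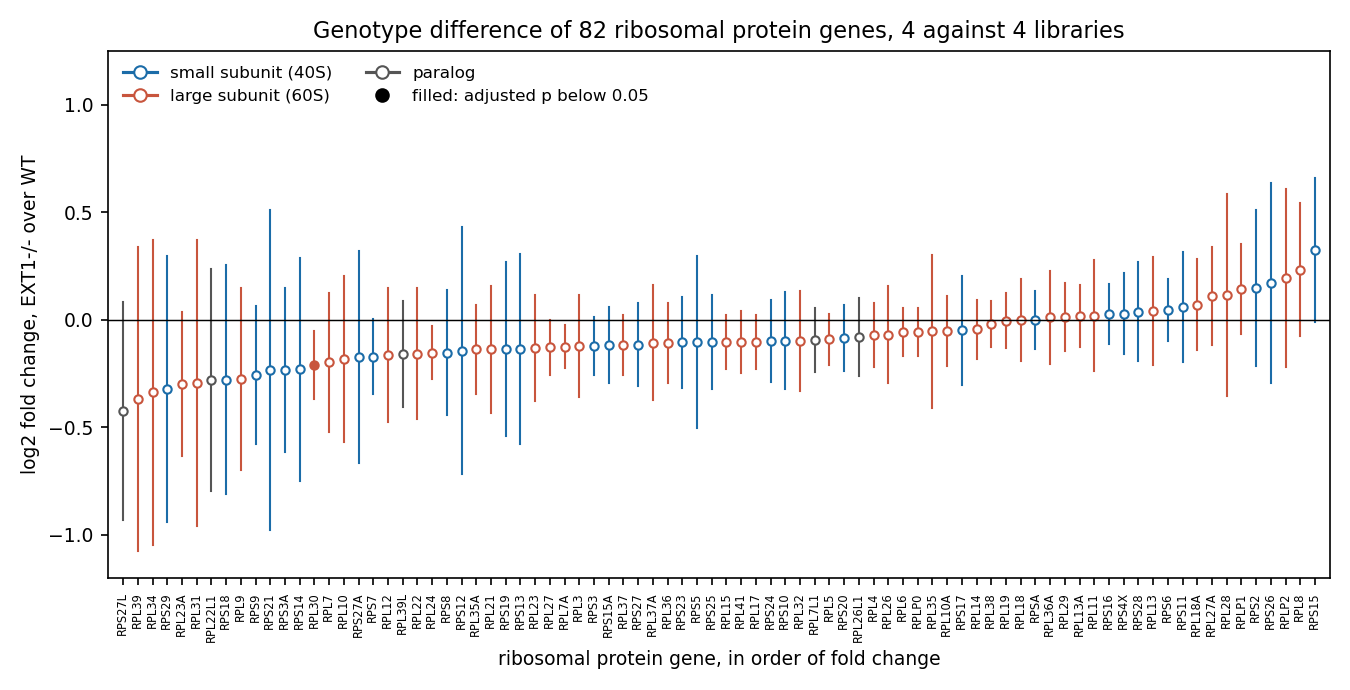
Log2 fold change, EXT1-/- over WT, of each of the 82 genes in 4 against 4 libraries (limma), in order of size; bars are 95% intervals and colour gives the subunit. The points run from -0.43 to 0.32, most intervals cross 0, and the 1 filled point is RPL30.

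Genes with known roles beyond the ribosome, or in disease, were read one by one. RPSA, also known as the laminin receptor precursor, read 72469 to 83111 in WT and 76253 to 83325 in EXT1-/- libraries, a log2 fold change of -0.0019 ± 0.06 (SE). RPL38, known from mouse mutants with patterning defects of the skeleton, read 17249 to 18584 and 16882 to 18239, and RPL10A, another 60S protein studied for selective translation, read 36226 to 44354 and 36921 to 41422. The ranges overlapped in all 3 genes.

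RPL5 and RPL11 form the 5S ribonucleoprotein particle, which binds MDM2 when ribosome assembly fails. RPL5 read 66399 to 71779 in WT and 62678 to 66685 in EXT1-/- libraries, a log2 fold change of -0.09 ± 0.05 (SE), and RPL11 read 57233 to 71302 and 54464 to 73388, a log2 fold change of 0.02 ± 0.11 (SE). Neither passed the test. Of 17 genes mutated in Diamond-Blackfan anaemia, 0 passed in either direction over 8 libraries, against 32.0% of all genes. Within the low set 9 were lower, against 24.1% of all genes and 43.9% of the 82, which include all 17. RPS19, the one most often mutated, read 30461, 46613, 49371 and 47136 in WT and 34786, 43384, 47064 and 31846 in EXT1-/- libraries, so the 3 libraries of the high set were the low ones in both genotypes. RPS6, the substrate of the S6 kinases, had a log2 fold change of 0.05 ± 0.06 (SE), and RPS27A, made as a fusion with ubiquitin, one of -0.18 ± 0.22 (SE).

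The stalk of the large subunit, which recruits elongation factors, is built of RPLP0, RPLP1 and RPLP2 on a base that includes RPL12. RPLP0 read 125043 to 130461 in WT and 116791 to 126402 in EXT1-/- libraries, a log2 fold change of -0.06 ± 0.05 (SE). RPLP1 had a log2 fold change of 0.14 ± 0.09 and RPLP2 one of 0.19 ± 0.18, and RPL12 one of -0.17 ± 0.14 (SE). None of the 4 passed over 8 libraries.

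More genes passed within the low set than over all 8 libraries. Within the low set, 3 WT against 2 EXT1-/- libraries, 36 of 82 genes were lower and 0 higher in EXT1-/- (limma, adjusted over 15811 genes), where 24.1% of all genes were lower, 20.9% higher and 45.0% passed in either direction. The 36 are 43.9% of the 82, against 23.6% of the other genes at or above the lowest ribosomal protein gene's mean. They were 13 of 31 small-subunit genes, 20 of 46 large-subunit genes and 3 of 5 paralogs. The median log2 fold change was -0.13, where that of all genes was 0.00. Below 0 were 78 of 82, where 7819 of all 15811 genes were. RPL8, RPLP2, RPS15 and RPS26 were above 0. The values did not overlap, and were lower in EXT1-/-, for 51 genes, where 33.7% of all genes showed this. The differences were small, with none beyond -0.36.

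RPL12 had the smallest adjusted p in the low set. The 3 WT libraries held 60624, 63845 and 64173 counts and the 2 EXT1-/- libraries 48585 and 52231, a log2 fold change of -0.32 ± 0.04 (SE, adjusted p = 0.00138, limma). RPS9, a 40S protein that takes part in decoding, read 45122, 49904 and 51569 against 37460 and 40217, a log2 fold change of -0.33 ± 0.06 (SE, adjusted p = 0.00496, limma). RPL36, a small 60S protein, read 20444, 20875 and 20119 against 16804 and 17661, a log2 fold change of -0.25 ± 0.04 (SE, adjusted p = 0.00145, limma). All 3 had groups that did not overlap within the set.

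Within the high set, 1 WT against 2 EXT1-/- libraries, 0 of 82 passed, where 0.772% of all genes did; the spread of the lone WT library is there assumed to equal that of the others. The median log2 fold change was 0.07 and 56 of 82 were above 0, where the median of all genes was 0.03 and 8574 of 15811 were above 0. RPL12 was again lower, 77528 in WT against 72221 and 66449. RPS9 was not: it read 32343 in WT against 36583 and 33355, and RPL36 read 17075 against 20154 and 18227. In all, 52 genes were below 0 in the low set and above 0 in the high set, 26 were below 0 in both and 4 above 0 in both. This split was not taken over all genes.

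**Figure D3:**
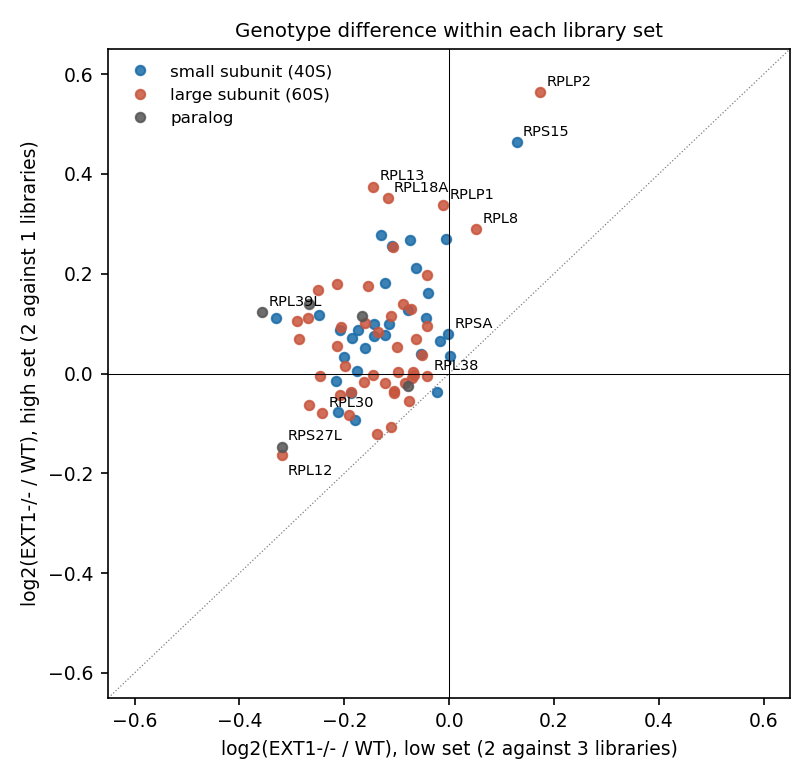
Log2 fold change, EXT1-/- over WT, within the low set (horizontal, 2 against 3 libraries) and within the high set (vertical, 2 against 1 library), with 1 point per gene. Of 82 points, 78 lie left of 0, 56 above 0, and 52 in the upper left.

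A test of the difference itself, the interaction of genotype with library set, was chosen after these values were seen. It called 0 of 82 genes, where 0.0379% of all genes passed, and the smallest adjusted p of the 82 was 0.488. At an unadjusted p below 0.05 it held 40 of 82, where 9.15% of all genes did. The coefficient was above 0 for 81 of 82 genes, and for 9200 of all 15811. The 82 coefficients share the same WT library of the high set and are not independent.

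In a model of all 8 libraries with terms for genotype and library set, 14 genes were lower and 1 higher, where 25.6% of all genes were lower and 26.2% higher. The 14 were RPS3, RPS7, RPS24 and RPS25 of the small subunit, RPL4, RPL7A, RPL12, RPL23A, RPL24, RPL27, RPL30, RPL32 and RPL37 of the large subunit, and the paralog RPS27L. The gene that was higher was RPLP2, at a log2 fold change of 0.31 ± 0.10 (SE, adjusted p = 0.0249, limma). It read 12590, 19246, 23981 and 18555 in WT and 17734, 23742, 22421 and 19533 in EXT1-/- libraries, with overlap between the groups. Without WT replicate 1, the WT library of the high set, 17 genes were lower and 0 higher with no set term, where 19.9% and 18.3% of all genes were. The count of lower genes was thus 1 with genotype alone and 14 to 36 in these 3 fits, and none of the 4 gave more than 1 higher gene. The lower genes were 17.1% of the 82 with the set term, below the 25.6% of all genes. Without WT replicate 1 they were 20.7%, near the 19.9% of all genes. Only within the low set was the share, 43.9%, well above that of all genes, 24.1%. Across the 82 genes the low-set difference had a rho of 0.369 with GC content and 0.286 with length. Over 12982 genes with a mean of at least 100 these were 0.115 and 0.0814. No low-set fit with these trends removed was run, so their part in that share was not tested.

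The largest differences among these genes were between the library sets, not the genotypes. They are given as values with no test, since the sets were read from the same data. RPS21, a small 40S protein, read 15178, 16883 and 15658 in the low-set WT libraries and 6754 in WT replicate 1, a ratio of 0.425. It read 14010 and 15043 in the low-set EXT1-/- libraries and 8707 and 7690 in the high-set ones, a ratio of 0.564. RPL39, which lines the exit tunnel for the growing chain, gave ratios of 0.445 in WT and 0.580 in EXT1-/-. RPL34, a 60S protein, gave 0.458 and 0.564. In these 3 genes every high-set library lay below every low-set library.

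Other genes moved the opposite way. RPL28, a 60S protein, read 19662, 19488 and 18173 in the low-set WT libraries and 28998 in WT replicate 1, a ratio of 1.52. It read 17960 and 18502 in the low-set EXT1-/- libraries and 29093 and 28771 in the high-set ones, a ratio of 1.59. RPS26, a 40S protein at the exit channel for messenger RNA, gave 1.52 in WT and 1.56 in EXT1-/-. RPL38 and RPLP0 scarcely differed between the sets.

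**Figure D4:**
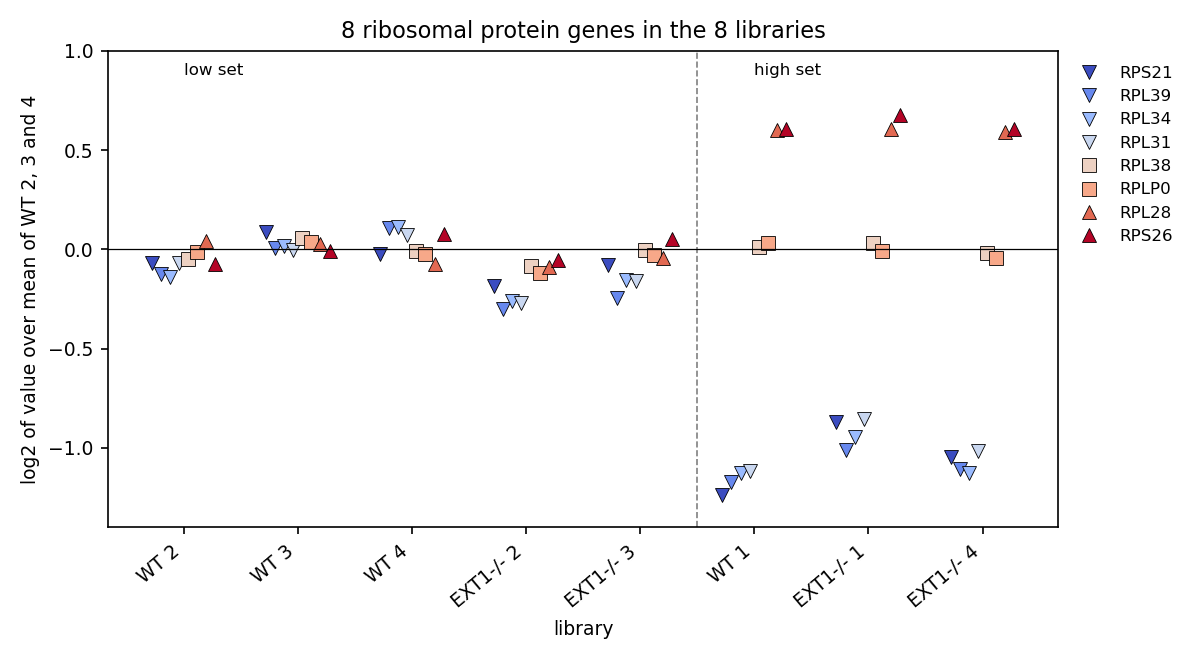
Log2 of each value over the mean of WT 2, 3 and 4 for 8 genes chosen after their values were seen, with the low set left of the dashed line and the high set right of it. RPS21, RPL39, RPL34 and RPL31 lie lower in every high-set library, RPL28 and RPS26 higher, and RPL38 and RPLP0 near 0 throughout.

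Over the 82 genes the high set lay below the low set, without overlap, for 32 genes and above it for 11, where 16.4% and 15.0% of all genes did so. In WT, 5 genes were at least 2-fold lower in the high-set library, 19 at least 1.5-fold lower and 2 at least 1.5-fold higher. These counts rest on 1 high-set library and were not taken over all genes. The quartiles of the log2 ratio of high to low set in WT were -0.49 and 0.025 for the 82. They were -0.23 and 0.21 for all genes. Both genotypes showed the same order: across the 82 genes the set difference in WT and that in EXT1-/-, which share no library, had r = 0.952 and rho = 0.929. Over 12982 genes with a mean of at least 100 the values were 0.817 and 0.803, and genes are not independent points. The difference was below 0 in both genotypes for 42 genes and above 0 in both for 23. Across the 82 genes its rho with GC content of the transcript was 0.174 in WT and 0.282 in EXT1-/-, against 0.418 and 0.599 over the 12982 genes, and its rho with length was 0.188 and 0.0735.

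**Figure D5:**
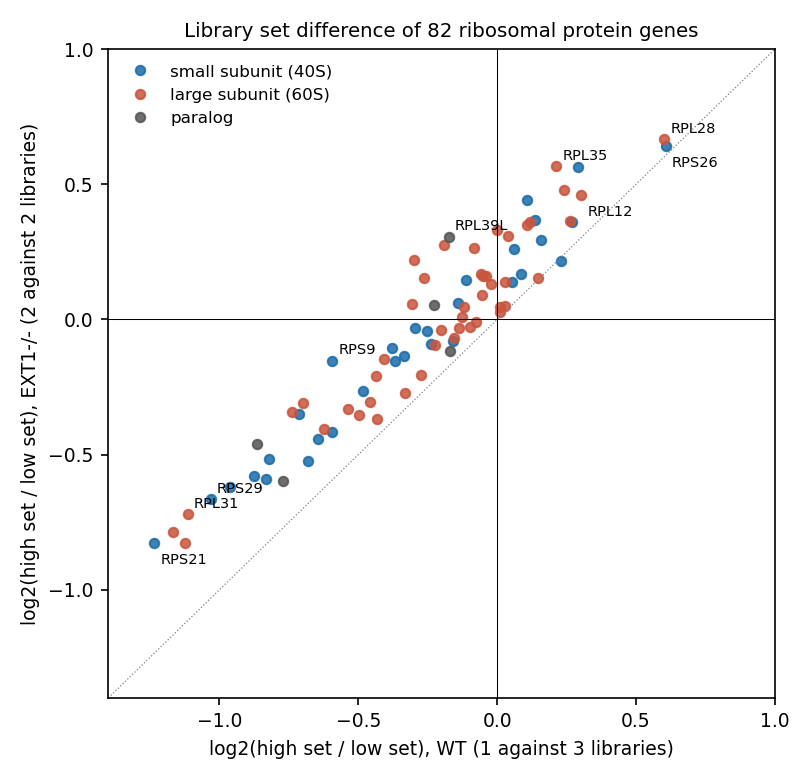
Log2 ratio of the high to the low library set in WT (horizontal, 1 against 3 libraries) and in EXT1-/- (vertical, 2 against 2 libraries), with 1 point per gene and equality as the dotted line. The points follow a diagonal band (r = 0.952), from RPS21 at the lower left to RPL28 and RPS26 at the upper right.

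The 5 paralogs are copies, and some of them may replace their partner in some ribosomes. RPS27L is also induced by p53 and RPL39L is best known from the male germ line. All 5 had log2 fold changes below 0 and 0 passed over 8 libraries. RPS27L read 1634, 2573, 2838 and 2983 in WT and 1521, 2143, 2336 and 1433 in EXT1-/- libraries, a log2 fold change of -0.43 ± 0.22 (SE, adjusted p = 0.180, limma). RPL22L1 read 1426, 2365, 2574 and 2882 against 1779, 2131, 2187 and 1386. In both genes the high-set libraries were the low ones. Within the low set RPS27L, RPL22L1 and RPL39L were among the 36 lower genes, with log2 fold changes of -0.32, -0.27 and -0.36.

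The balance between a paralog and its partner was tested as the ratio of their counts in 6 pairs, RPL36AL with RPL36A included. In exact permutation tests, two-sided and over the 70 divisions of the libraries, 0 of 6 ratios differed, with adjusted p from 0.771 to 0.943; the smallest unadjusted p the design allows is 0.0286. RPL7L1 stood at 9.24 ± 1.13% of RPL7 in WT and 9.92 ± 0.959% in EXT1-/- libraries (SD, n = 4), and RPL26L1 at 1.95 ± 0.174% and 1.93 ± 0.208% of RPL26. RPL22L1 stood at 7.59 ± 1.12% and 6.94 ± 0.593% of RPL22, and RPS27L at 5.32 ± 0.830% and 4.33 ± 0.973% of RPS27. RPL39L was 10.3% of RPL39 in WT replicate 1 and 9.47 and 11.4% in EXT1-/- replicates 1 and 4, against 4.71 to 5.71% in the other 5 libraries. That ratio followed the library set, and RPL39L itself read 1133 to 1671 in all 8 libraries while RPL39 fell to 12944 to 14482 in the high set. Other ratios also split by set without overlap. RPL7L1 stood at 10.5 to 10.9% in the high set and 8.42 to 9.13% in the low set. RPL26L1 stood at 1.69 to 1.80% and 1.99 to 2.17%, and RPS27L at 3.40 to 4.10% and 5.14 to 5.93%. The ratios of RPL22L1 and RPL36AL overlapped between the sets. The permutation tests took no account of the set.

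Processed pseudogenes, copies of the messenger inserted elsewhere in the genome, can share reads with these genes. The table held 54 such rows for 32 of the 82 genes, and 3 of these rows were higher and 1 lower in EXT1-/- (limma). Their sum reached 35.0% of RPL23A and was over 5% for 5 genes, which are uncertain to that extent. With the pseudogene values added to the gene they copy, the count was again 0 higher and 1 lower.

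Genes that act with the ribosomal proteins were read from lists of their roles, to be set against the 15.2% of all genes that were higher and 16.8% lower over 8 libraries, and 20.9% and 24.1% within the low set. Of 3 ribosomal proteins or ribosome-bound proteins outside the naming rule, 0 passed over 8 libraries. FAU had a log2 fold change of -0.10 ± 0.11 (SE), and of -0.15 within the low set, where it passed, and RACK1 had -0.06 ± 0.05 over 8 libraries. Of 20 further TOP messengers of the translation apparatus, 5 were lower and 0 higher in EXT1-/- over 8 libraries, and 11 lower and 0 higher within the low set. The 5 became 3 when libraries were scaled without mitochondrial genes and 2 after trends with GC content and length were removed. EIF4B, a helicase cofactor, was lower by a log2 fold change of -0.27. EEF1A1, the elongation factor that brings tRNA, was at -0.20 ± 0.07 (SE, adjusted p = 0.0489, limma). Its call was lost without each library in turn other than WT replicate 1, when libraries were scaled without mitochondrial genes, with a pseudocount of 10, with a filter of 5 CPM and after GC and length trends were removed. Among 34 initiation factors, some of them also among the 20, 10 were lower and 2 higher over 8 libraries and 16 lower and 3 higher within the low set. EIF5 was at 0.48 and EIF5A at -0.23. After GC and length trends were removed 5 were lower and 4 higher. In that fit 17.9% of all genes were lower and 20.5% higher.

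Most genes of ribosome assembly did not pass. Of 46 biogenesis genes 4 were higher, 3 lower and 39 not called over 8 libraries, and 9 were higher and 8 lower within the low set. RRS1, an assembly factor of the 60S subunit, was at 0.39. WDR12, a partner of PES1 and BOP1, was at -0.18, a call lost without WT replicate 2 or 4 and after GC and length trends were removed. With these trends removed 11 of the 46 were higher, where 20.5% of all genes were. Of 15 genes of RNA polymerase I, 2 were higher and 2 lower over 8 libraries, and 2 higher and 4 lower within the low set. POLR1D was at -0.25. The calls of UBTF (0.31) and POLR1E (-0.28) were each lost in 5 of the 8 fits that left out 1 library, that of UBTF also with upper quartile factors, and that of TAF1C (0.39) without EXT1-/- replicate 4 and after GC and length trends were removed. Of 15 snoRNA host genes 1 was higher and 1 lower, and 1 higher and 8 lower within the low set. SNHG12 was at 0.34. SNHG16 was at -0.40, a call lost in 4 of the 8 fits that left out 1 library. GAS5, which carries a TOP tract, had -0.29 ± 0.21 (SE, adjusted p = 0.315, limma) over 8 libraries and -0.20 within the low set (adjusted p = 0.00768, limma).

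Of 14 genes of mTORC1 signalling and TOP control, LARP1 included (log2 fold change 0.06 ± 0.07, SE), 0 passed over 8 libraries, and 1 was higher and 3 lower within the low set. Of 11 genes of the MYC network, which drives ribosomal protein transcription, 4 were higher and 0 lower over 8 libraries, and 4 higher and 2 lower within the low set. MYCN read 641 to 822 in WT and 1078 to 1445 in EXT1-/- libraries, a log2 fold change of 0.75 ± 0.11 (SE, adjusted p = 0.000877, limma). MYCL was higher by 0.39, and so were MXD3 by 0.72 and MXD4 by 0.73, members of the MXD family that compete with MYC for its partner MAX. The call of MXD3 was lost after GC and length trends were removed. MYC read 547 to 745 and 413 to 578, a log2 fold change of -0.35 ± 0.13 (SE, adjusted p = 0.0731, limma) over 8 libraries and of -0.43 within the low set (adjusted p = 0.00214, limma). MYC also passed as lower with the set as a term (-0.45) and without EXT1-/- replicate 4 (-0.45). It did so too after each removal of GC and length trends (-0.39 and -0.38). Under the other settings its call did not change.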

How the data were processed

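Members and gene lists were chosen with earlier results of these data known. Per the submitters' processing notes, STAR, RSEM and edgeR were used with the build GRCh38.p10; per the labels' protocols the kit was for stranded total RNA. The authors deposited whole-number values per library that are a normalised signal, not raw counts, called normalised read counts here. The authors also deposited a log2 fold change and log2 CPM, a p-value and FDR, and a likelihood ratio score per gene; only the fold change and FDR were read. Here log2(value + 1) was fitted with limma 3.58.1 (R 4.3.3) with an intensity trend, two-sided, Benjamini-Hochberg over 15811 genes, threshold 0.05. Genes needed a mean of 1 or more in a group. A CPM was 38.9 normalised counts. A count model planned for raw counts gave way to limma because the values are not counts. Fold changes refer to log2(value + 1). How reads shared by near-identical copies were divided is not given in the sources used here.

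Coordinates, length and GC content came from GENCODE 29 (99.7% of genes). Lengths were first taken over principal transcripts, which gave implausibly long values for some members, then over all protein-coding transcripts; both removals of GC and length trends were kept. Named genes were EXT1; members past the threshold; each paralog with its partner; the 5 members with the highest mean; a set of members with known roles; up to 4 genes with the smallest adjusted p per list; and FAU, RACK1, MYC, MYCN, LARP1, EEF1A1, EEF2 and GAS5. Others were chosen after their values were seen: RPL7A, RPL24 and RPL27, the genes named within a library set, and those with printed sequences. Library sets were split at the largest gap in mitochondrial share. The fit was tested on simulated data. Python 3.11.15, pandas 2.3.3, numpy 2.4.6, scipy 1.17.1 and matplotlib 3.10.9 were used. Replicate numbers were not taken to pair libraries. Of the named genes 1 is not reported here, and others enter only counts and sums.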

Additional observations from a re-analysis of the deposited data

Results flagged for a closer look

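Of 140 groups of 4 libraries looked at, 17 held 1 library far from the other 3; chance gives about 1 in 20. The limit was Dixon's 95% value for the gap over the range. Over all 82 genes 15 of 164 groups did so, 12 of them through WT replicate 1, the WT library of the high set.

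Among ribosomal protein genes, RPL4 read 141977 in WT replicate 1 against 127201 to 129517 in the other 3, RPL3 read 117828 against 147051 to 150609, and RPS19 read 30461 against 46613 to 49371. In WT replicate 3, RPL13A read 120975 against 112081 to 113066 and RPLP1 read 56443 against 46776 to 48024. WT replicate 1 also stood apart in EXT1 (1776 against 1464 to 1508), SNHG16 (3847 against 4727 to 4811), GAS5 (11851 against 19100 to 20152), LARP1 (12880 against 11077 to 11303), NANOG (4018 against 3501 to 3551) and COL1A2 (4106 against 5415 to 5547). WT replicate 4 stood apart in EIF3E (32630 against 30218 to 30353) and EIF2S2 (12382 against 11894 to 11949), and WT replicate 3 in TBXT (7319 against 6244 to 6378). EXT1-/- replicate 4 stood apart in WDR12 (3676 against 3896 to 3930) and TBXT (4932 against 3002 to 3328), and EXT1-/- replicate 1 in POLR1D (5317 against 5084 to 5098).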

How the results depend on the processing

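Results were recomputed under 24 settings beside the one reported. Over all 8 libraries the count of lower ribosomal protein genes stayed between 0 and 3 under every scaling, pseudocount, filter and tool run without a set term: it was 3 with upper quartile factors, 2 with limma-voom and 0 with a filter of at least 5 CPM in 4 libraries. No gene was higher in these. The count was 36 in the low set, and 14 lower with 1 higher with the set as a term. It was 0 in the high set, where 1 WT library leaves a fit that passes few genes of any kind and says nothing of the count. Leaving out 1 library gave 0 to 17 lower genes, with 17 without WT replicate 1 and 0 without each of the other 7. After trends with GC content and length were removed the count was again 1, but the gene was RPL36 and not RPL30; with lengths over principal transcripts, a setting added after the data were seen as were the pseudogene sums, it was 0. The median log2 fold change was -0.042 after the first removal of trends and -0.063 with the set as a term. It turned to 0.073 in the high set, where the median of all genes was 0.031 and EXT1 was at -0.93. The cause of this change in sign was not tested. The count models of edgeR and DESeq2 could not be used on normalised values, and the depth in reads is unknown.

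Replicate numbers were shared by the groups, but deviations of same-numbered libraries had correlations of 0.783, 0.438, 0.260 and -0.654, so the numbers do not pair them. With the replicate number as a block, 0 genes were higher and 0 lower, RPL30 having an adjusted p of 0.0708 by limma, and 4934 of all genes passed, against 5063.

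Some log2 fold changes changed sign. Most were small, but in the high set RPL39, RPL22L1, RPL39L and RPS27A turned from -0.37, -0.28, -0.16 and -0.18. Log2 fold changes with upper quartile factors were -0.0092 for RPL36A, -0.0011 for RPL13A, -0.0010 for RPL11 and -0.0036 for EEF2. RPSA had 0.010 with the total taken without mitochondrial genes and 0.0022 without these and the ribosomal protein genes. With the set as a term they were -0.042 for RPL36AL, -0.037 for RPL36A, -0.00023 for RPL13A, 0.027 for RPSA, -0.062 for RPL11 and -0.057 for EEF2. In the low set they were -0.029 for RPL36AL, -0.16 for RPL36A, which passed there, -0.062 for RPS2, -0.072 for RPL13A, -0.011 for RPLP1, -0.098 for RPL11, -0.017 for RPS6 and -0.10 for EEF2. In the high set they were 0.14 for RPL22L1, 0.12 for RPL26L1, 0.055 for RPL26, 0.12 for RPL39L, 0.11 for RPL39, 0.087 for RPS27, -0.065 for RPL36AL, 0.078 for RPSA, 0.069 for RPL10A, 0.13 for RPS19, 0.18 for RPS27A, 0.17 for FAU and -0.016 for LARP1. Without GC and length trends they were 0.040 for RPL26, 0.072 for RPSA, 0.0012 for RPL5, 0.016 for RPL10A, 0.014 for RPL38 and -0.0025 for EEF2. With principal transcripts they were 0.041 for RPL26L1, 0.053 for RPL26, 0.0017 for RPL4, 0.091 for RPSA, 0.018 for RPL5, 0.026 for RPL10A, 0.069 for RPL38 and 0.00090 for EIF3E.

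With 1 library left out in turn, the log2 fold change ran from -0.025 to 0.10 for RPL36AL, -0.065 to 0.079 for RPL36A, -0.055 to 0.088 for RPL11, -0.042 to 0.024 for RPSA, -0.062 to 0.089 for EEF2, -0.016 to 0.059 for RPL13A and -0.14 to 0.0025 for RPL26. The log2 ratio between genotypes ran from -0.078 to 0.042 for RPL26L1 to RPL26, -0.018 to 0.093 for RPL36AL to RPL36A and -0.016 to 0.46 for RPL39L to RPL39. In the low set it was 0.049 for RPL26L1 to RPL26 and -0.088 for RPL39L to RPL39, where 3 against 2 libraries cannot reach an exact p under 0.1. The difference in the share of the library stayed below 0 under every setting run for it. Within the high set alone the order was the reverse. WT replicate 1 took 9.08% there, and EXT1-/- replicates 1 and 4 took 9.70 and 9.21%.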
